A study of Homo sapiens with 12 samples.

Results

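The genes of the AP-1 transcription factors, together with EGR1, IER2 and MYC, were examined in RNA-seq libraries of Pa-Tu-8902 and MIA PaCa-2, established human pancreatic ductal adenocarcinoma (PDA) cell lines. The set was defined by gene symbol alone and held 10 of the 58721 genes in the tables: FOS, FOSB, FOSL1, FOSL2, JUN, JUNB, JUND, EGR1, IER2 and MYC. All 10 were found once and all 10 passed the filter on low counts in each comparison. Both lines carried iDox-shGOT1, an integrated short hairpin RNA against GOT1 (a transaminase that interconverts aspartate and glutamate) that is expressed when doxycycline (dox) is added. The 4 groups of 3 libraries were untreated Pa-Tu-8902, Pa-Tu-8902 after 5 days of dox, untreated MIA PaCa-2 and MIA PaCa-2 after 5 days of dox, all from cultures in medium with 10% fetal bovine serum. The dox libraries all carried the hairpin and no control hairpin was sequenced here, so dox and loss of GOT1 cannot be told apart. The sources used here do not say whether replicates were separate cultures, so p-values measure only the spread between these libraries.

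AP-1 is a dimer of leucine zipper proteins. A JUN-family protein (JUN, JUNB or JUND) pairs with a FOS-family protein (FOS, FOSB, FOSL1, also called FRA1, or FOSL2, also called FRA2) or with another JUN-family protein, and the pair binds the DNA motif TGACTCA. FOS, FOSB, EGR1 and IER2 are immediate-early genes, which growth factors and stress switch on within minutes through the ERK kinases and serum response factor and which then fade. FOSL1 and MYC remain on as long as ERK signaling lasts, and both are known as lasting outputs of that pathway in carcinomas. The cells were sampled from cultures in serum, and no pulse of growth factor is described for them. The paper reports that GOT1 knockdown left most cells arrested in the cell cycle. Growth of the sequenced cultures is not given, so untreated and dox cells may have grown at different rates.

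Total counts were 26226537 to 43406137 per library. GOT1 served as the check of the labels. It measured 78.3, 81.5 and 83.4 TPM (transcripts-per-million, a level that is corrected for gene length) in untreated Pa-Tu-8902 and 4.51, 3.29 and 3.68 TPM with dox. In MIA PaCa-2 GOT1 measured 44.1, 38.9 and 42.7 TPM without and 1.68, 1.95 and 1.87 TPM with dox. GOT1 was thus far lower in every dox library, with a log2 fold change of -4.64 ± 0.09 (SE) in Pa-Tu-8902 cells and -4.76 ± 0.11 in MIA PaCa-2 cells. The deposited titles set which line a library belongs to. In part of a supplementary table of the study, counts deposited under MIA PaCa-2 titles stand in columns named for Pa-Tu-8902, so the line of each value rests on those titles. The epithelial markers EPCAM, CDH1 and KRT7 were high in the libraries titled Pa-Tu-8902 and at most 1.26 TPM in those titled MIA PaCa-2. KRT8, KRT18 and KRT19 were high in both lines. They averaged 1445, 964 and 397 TPM in untreated MIA PaCa-2 and 1606, 1235 and 130 TPM with dox. In Pa-Tu-8902 they averaged 3789, 2682 and 1253 TPM without and 2985, 2248 and 1105 TPM with dox. Of the mesenchymal markers, VIM averaged 3932 TPM without and 3956 TPM with dox in MIA PaCa-2, and 6.46 and 2.93 TPM in Pa-Tu-8902. ZEB1 averaged 10.5 and 9.52 TPM in MIA PaCa-2, and 0.73 and 0.78 TPM in Pa-Tu-8902. CDH2 went the other way, at 0.90 and 0.65 TPM in Pa-Tu-8902 and at most 0.01 TPM in MIA PaCa-2. Of the fibroblast markers, COL1A1 averaged 4.50 TPM without and 19.6 TPM with dox in Pa-Tu-8902, and COL1A2 averaged 226 and 372 TPM in MIA PaCa-2, while COL3A1, DCN and LUM did not exceed 0.14 TPM in any library. The leukocyte and endothelial markers PTPRC, CD3E and PECAM1 stayed at or below 0.34 TPM, VWF at or below 1.03 TPM, and the macrophage marker CD68 measured 2.86 to 9.68 TPM over the 12 libraries. The untreated MIA PaCa-2 library of replicate 2 stood apart from its 2 partners, where the chi-square of its counts against theirs, divided by the degrees of freedom, was 25.5 and 27.3, and all other pairs within groups gave 2.25 to 20.6. Counts and named genes in MIA PaCa-2 whose call changed without this library are given with and without it.

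With dox, EGR1 was lower in both lines and FOSL2 was higher in both lines. FOSL1 and JUN fell in Pa-Tu-8902, while FOS and MYC rose in MIA PaCa-2. A gene was called when its Benjamini-Hochberg adjusted p in edgeR's quasi-likelihood test over all genes was below 0.01 and its fold change at least 1.5. In Pa-Tu-8902 4 of the 10 genes were called, 1 higher and 3 lower, where 16.3% of all genes tested were called, 9.22% higher and 7.12% lower. In MIA PaCa-2 4 of the 10 were called, 3 higher and 1 lower, where 12% of all genes were called, 4.36% higher and 7.64% lower. The median log2 fold change of the 10 genes was -0.01 in Pa-Tu-8902 cells and 0.33 in MIA PaCa-2 cells, and that of all genes tested was 0.00 and -0.01. At baseline, 8 of the 10 differed between the lines, against 58.1% of all genes.

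**Figure D1:**
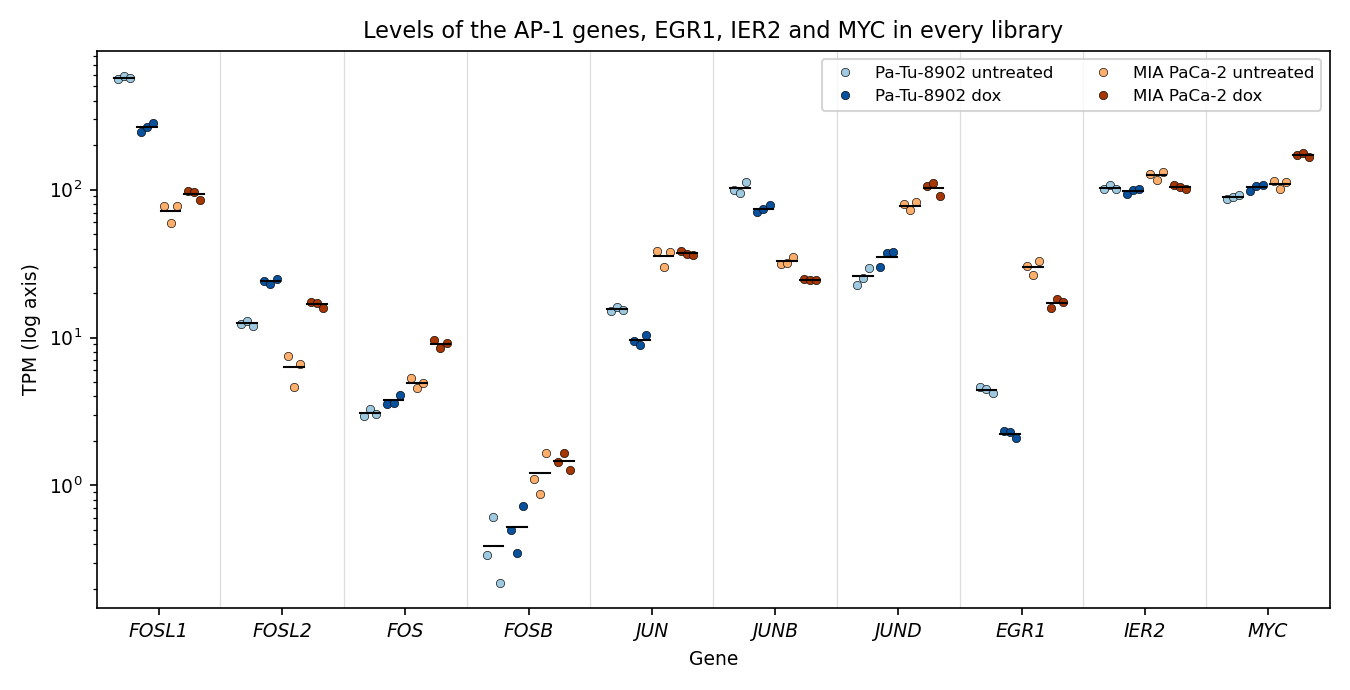
Level of each gene in each of the 12 libraries in TPM on a log axis. Points are libraries, black bars are the means of 3, and colors mark the line and dox. FOSL1 sits between 559.8 and 587 TPM in untreated Pa-Tu-8902, above every other gene shown, and EGR1 is lower with dox in both lines.

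FOSL1 was the most abundant of the 10 genes in Pa-Tu-8902. It lies on chromosome 11 (GRCh38 chr11:65892049-65900573, minus strand) and encodes the FOS-family partner best known from invasive carcinomas. It measured 559.8, 587 and 568 TPM in untreated Pa-Tu-8902 and 245, 264 and 284 TPM with dox. The groups were far apart, and each dox library held less than any untreated library. The log2 fold change was -1.19 ± 0.06 (adjusted p = 1.50e-07), a 2.28-fold fall. In MIA PaCa-2 FOSL1 measured 77.4, 59.6 and 78.0 TPM without dox and 97.5, 96.1 and 85.6 TPM with it. Every dox library lay above every untreated one there, the library that stood apart being the lowest. The log2 difference of 0.32 ± 0.07 passed the p threshold (adjusted p = 0.00279) but not the fold limit, and was 0.27 without that library. The fall of FOSL1 was thus seen in Pa-Tu-8902, while the small difference in MIA PaCa-2 had the opposite sign.

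FOSL2 was the only one of the 10 genes called higher in both lines. It codes for the other FOS-family protein that lacks the strong activation domain of FOS. In untreated Pa-Tu-8902 it measured 12.3, 13.0 and 11.99 TPM, and with dox 24.0, 23.1 and 25.0 TPM. In MIA PaCa-2 the values were 7.55, 4.62 and 6.67 TPM without and 17.4, 17.2 and 15.7 TPM with dox. In neither line did the groups overlap. The log2 fold change was 0.86 ± 0.05 in Pa-Tu-8902 cells (adjusted p = 1.90e-07) and 1.40 ± 0.09 in MIA PaCa-2 cells (adjusted p = 7.60e-07), where it was 1.29 without the library that stood apart. FOSL2 overlaps the antisense gene FOSL2-AS1 on chromosome 2. It also overlaps a long non-coding RNA gene on its own strand, which strand alone cannot set apart.

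FOS, the classic immediate-early partner of JUN, was low in both lines. In Pa-Tu-8902 it measured 2.94, 3.28 and 3.05 TPM without dox and 3.57, 3.62 and 4.06 TPM with it. These values did not overlap, but the log2 difference of 0.24 ± 0.12 did not pass the test (adjusted p = 0.113). In the MIA PaCa-2 line FOS measured 5.30, 4.55 and 4.95 TPM without and 9.59, 8.45 and 9.25 TPM with dox, a rise of 0.78 ± 0.10 on the log2 scale (adjusted p = 1.02e-04). FOS thus rose in MIA PaCa-2 by 1.72-fold. FOSB, the other immediate-early FOS-family gene, was the least abundant of the 10, at 0.22 to 0.72 TPM in Pa-Tu-8902 cells and 0.87 to 1.66 TPM in MIA PaCa-2 cells. Its TPM values overlapped between untreated and dox libraries in both lines. Its counts gave log2 differences of 0.33 ± 0.28 in Pa-Tu-8902 cells (adjusted p = 0.353) and 0.58 ± 0.18 in MIA PaCa-2 cells (adjusted p = 0.0204), and neither passed. With effective gene lengths taken into account the latter was 0.22. FOSB shares part of its locus on chromosome 19 with ERCC1 on the opposite strand. The paper gives default parameters and names no strand setting for the counting, so reads of such pairs may not have been told apart. The same limit holds for FOSL2, JUNB, IER2 and MYC, which also overlap genes on the opposite strand.

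Set against each other per length, the FOS-family transcripts were mostly FOSL1 in all 4 groups, and the share of FOSL1 was lower with dox in both lines. FOSL1 took 97.3% ± 0.1 (SD, n = 3) of the summed TPM of the 4 FOS-family genes in untreated Pa-Tu-8902 and 90.3% ± 0.5 with dox. In MIA PaCa-2 it took 85.3% ± 0.5 without and 77.3% ± 0.7 with dox. The ranges did not overlap in either line. FOSL2 took 2.12% and 8.22% in Pa-Tu-8902 and 7.40% and 13.9% in MIA PaCa-2, without and with dox, so that its share was larger with dox in each line. The summed FOS-family level moved the opposite way in the lines, from 588 ± 15 to 293 ± 20 TPM in Pa-Tu-8902 cells and from 84.1 ± 12.5 to 120.4 ± 7.5 TPM in MIA PaCa-2 cells. These shares and sums are descriptions and were not tested.

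**Figure D2:**
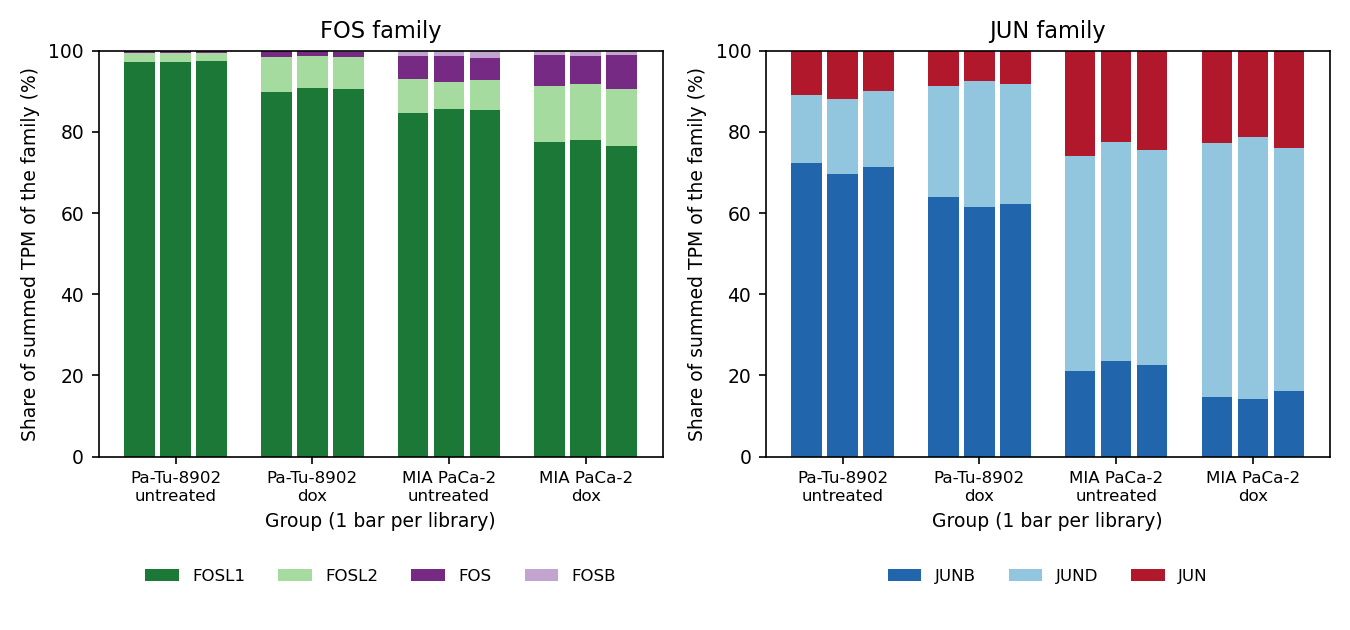
Share of each gene in the summed TPM of the 4 FOS-family genes (left) and the 3 JUN-family genes (right), 1 bar per library. FOSL1 takes 97.3% of the FOS family in untreated Pa-Tu-8902 and 77.3% in dox-treated MIA PaCa-2, and JUNB leads the JUN family in Pa-Tu-8902 where JUND leads in MIA PaCa-2.

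Of the JUN family, JUN fell in Pa-Tu-8902. JUNB passed the p threshold but not the fold limit in both lines, and JUND passed neither in either line. JUN (GRCh38 chr1:58776845-58784048, minus strand, a single exon) encodes the strongest activator of the family. It measured 15.1, 16.1 and 15.5 TPM in untreated Pa-Tu-8902 and 9.53, 8.90 and 10.4 TPM with dox. The groups did not overlap and the log2 fold change was -0.78 ± 0.07 (adjusted p = 4.31e-06). In MIA PaCa-2 JUN measured 38.8, 30.1 and 38.1 TPM without and 38.5, 36.5 and 36.1 TPM with dox. Those groups overlapped, with a log2 difference of 0.01 ± 0.06 (adjusted p = 0.882) that took the other sign, -0.04, without the library that stood apart.

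JUNB, whose product often opposes that of JUN, measured 99.5, 94.9 and 112 TPM in untreated Pa-Tu-8902 and 70.2, 74.0 and 79.1 TPM with dox. JUNB in MIA PaCa-2 measured 31.6, 31.8 and 35.1 TPM without and 24.8, 24.5 and 24.4 TPM with dox. In both lines every dox library was below every untreated library. The log2 differences of -0.54 ± 0.09 (adjusted p = 3.71e-04) and -0.47 ± 0.07 (adjusted p = 4.04e-04) passed the p threshold and missed the fold limit. In Pa-Tu-8902 the difference passed both, at -0.61, when untreated replicate 2 was left out. JUNB lies on chromosome 19 and overlaps HOOK2 on the opposite strand. JUND, the family member that is expressed most evenly across tissues, measured 22.8, 25.4 and 29.7 TPM without and 29.9, 37.2 and 37.7 TPM with dox in Pa-Tu-8902. The MIA PaCa-2 libraries held 79.7, 72.4 and 82.5 TPM without and 105.8, 111 and 90.5 TPM with dox. The TPM values of JUND did not overlap in either line, but in normalized counts those of Pa-Tu-8902 did. The log2 differences of 0.33 ± 0.11 (adjusted p = 0.0311) and 0.34 ± 0.10 (adjusted p = 0.0139) did not pass.

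The make-up of the JUN family differed between the lines more than it differed with dox. In untreated Pa-Tu-8902 JUNB took 71.1% ± 1.4, JUND 18.0% ± 1.2 and JUN 10.9% ± 1.0 of the summed TPM. In untreated MIA PaCa-2 JUND took 53.3% ± 0.5, JUN 24.3% ± 1.7 and JUNB 22.4% ± 1.3. JUNB was the leading transcript in one line and JUND in the other. With dox the share of JUND was larger in both, at 29.3% ± 1.9 and 62.3% ± 2.3, and that of JUNB smaller, at 62.6% ± 1.3 and 15.02% ± 0.99. The summed JUN-family level lay within 109.7 to 172 TPM in all 12 libraries. It was 143.7 ± 11.8 TPM in untreated and 119.0 ± 8.8 TPM in dox-treated Pa-Tu-8902, where the groups did not overlap. In MIA PaCa-2 it was 146.7 ± 11.1 TPM without and 164.0 ± 11.3 TPM with dox, and the groups overlapped. Summed FOS-family over summed JUN-family TPM was 4.11 ± 0.37 in untreated and 2.46 ± 0.04 in dox-treated Pa-Tu-8902, and 0.571 ± 0.047 and 0.734 ± 0.014 in MIA PaCa-2.

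EGR1 fell in both lines. It lies on chromosome 5 (GRCh38 chr5:138465479-138469303, plus strand) and encodes a zinc finger factor that ERK signaling induces through serum response factor. In Pa-Tu-8902 it measured 4.61, 4.47 and 4.19 TPM without dox and 2.34, 2.28 and 2.10 TPM with it. In MIA PaCa-2 it measured 30.5, 26.6 and 33.1 TPM without and 15.9, 18.3 and 17.3 TPM with dox. EGR1 was lower in each dox library than in any untreated library of its line, although its level was several-fold higher in MIA PaCa-2. The log2 fold change was -1.06 ± 0.10 in Pa-Tu-8902 cells (adjusted p = 8.49e-06) and -0.85 ± 0.07 in MIA PaCa-2 cells (adjusted p = 4.79e-06).

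The promoters were read to see which of the 10 genes carry the motifs of serum response factor, AP-1, MYC and EGR1 close to their starts. RefSeq sequence on GRCh38.p14 from 250 bases before to 50 bases after the start was given for 8 of the 10 genes, and not for FOSL1 and MYC. The motifs searched on both strands were the CArG box, which serum response factor binds, the AP-1 motif TGACTCA, its relatives TGACGTCA and TGACATCA, the E-box CACGTG of MYC and the EGR1 motif GCGTGGGCG, none of which contains another. Within these windows EGR1 held the only CArG boxes among the 8 genes, a pair of them upstream of its start. Of all 35116 promoters searched, 1.29% held one. Sequence farther from the starts was not searched, so a gene without a match here may hold the motif elsewhere. JUN held TGACATCA and JUND held TGACGTCA, motifs that 2.61% and 1.85% of all promoters held. FOSL2 held TGACTCA just downstream of its start (4.95% of all promoters). No E-box (7.26% of all promoters) and no GCGTGGGCG (0.795%) was found in the windows of the 8 genes. A match describes the letters and not a bound site. The 4 upstream matches are printed in 30 bases each, 5′ to 3′ on the strand of the gene, with the motif in capitals. The CArG boxes of EGR1 begin 105 bases (chr5:138465364-138465393) and 83 bases (chr5:138465386-138465415) before the start on the plus strand, the motif of JUN begins 67 bases before it (chr1:58784096-58784125, minus strand) and that of JUND 200 bases before it (chr19:18281804-18281833, minus strand).
EGR1 CArG box, distal: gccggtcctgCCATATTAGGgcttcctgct
EGR1 CArG box, proximal: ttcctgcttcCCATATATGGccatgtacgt
JUN: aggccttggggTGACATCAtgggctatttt
JUND: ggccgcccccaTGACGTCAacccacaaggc

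IER2, an immediate-early gene for a nuclear protein, was among the most abundant of the 10 in every group. It measured 102, 107 and 102 TPM without and 93.9, 99.3 and 100.3 TPM with dox in Pa-Tu-8902, and 129, 116 and 132 TPM without and 108, 105 and 101 TPM with dox in MIA PaCa-2. The groups did not overlap in either line, yet the differences were small. They came to -0.15 ± 0.05 on the log2 scale in Pa-Tu-8902 cells (adjusted p = 0.0367) and -0.30 ± 0.05 in MIA PaCa-2 cells (adjusted p = 0.00125, under the fold limit).

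MYC, which encodes the helix-loop-helix factor that drives ribosome production and cell growth, was called higher in MIA PaCa-2 only narrowly. The gene lies on chromosome 8, where CASC11 overlaps it on the opposite strand. In Pa-Tu-8902 it measured 87.0, 89.6 and 91.5 TPM without and 98.6, 105 and 107 TPM with dox. In MIA PaCa-2 it measured 115, 101 and 112 TPM without and 172, 176 and 167 TPM with dox. The TPM values did not overlap in either line, but in normalized counts those of Pa-Tu-8902 did. The log2 difference of 0.14 ± 0.06 in Pa-Tu-8902 did not pass (adjusted p = 0.0726). In MIA PaCa-2 it was 0.59 ± 0.06 (adjusted p = 1.15e-05), a 1.51-fold rise that lies just past the fold limit. It fell short of that limit at 0.56 without untreated replicate 3, at 0.57 without dox replicate 2 and at 0.58 with no filter on low counts.

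**Figure D3:**
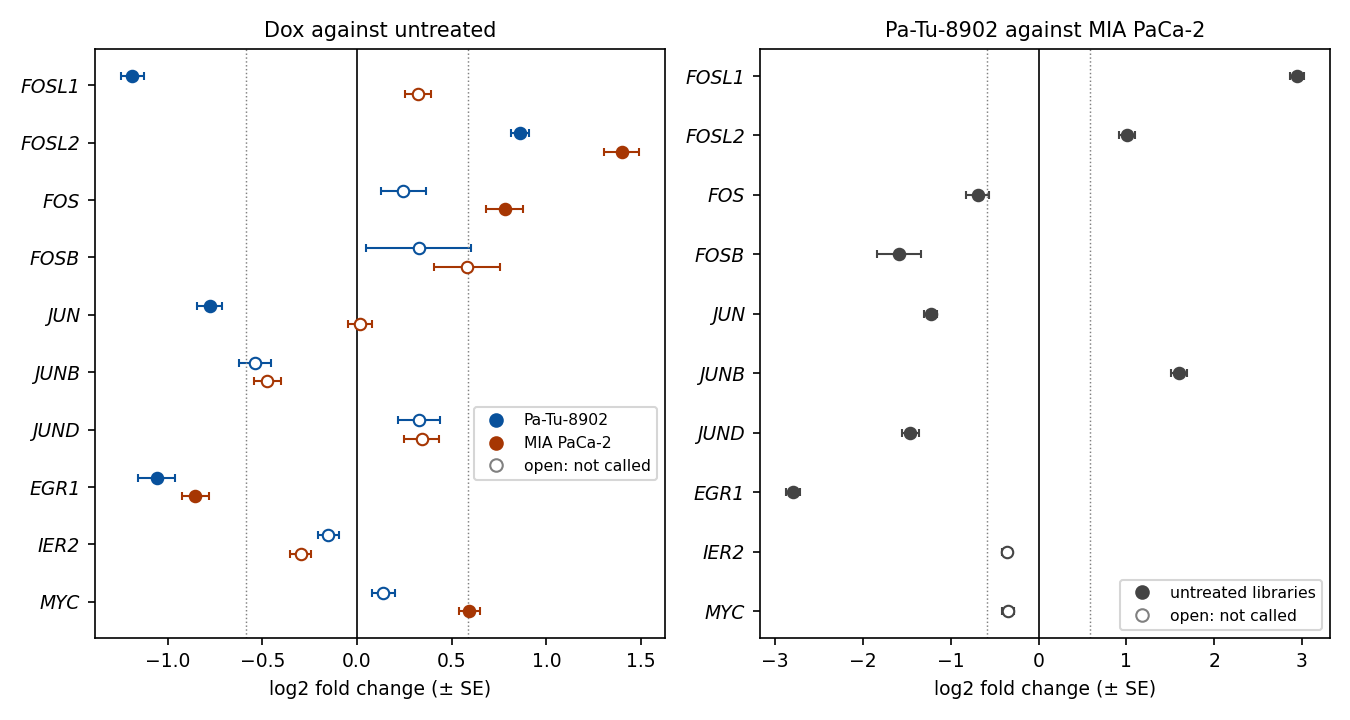
Log2 fold change ± SE of each gene, with dox in each line (left) and between the untreated lines (right, above 0 means higher in Pa-Tu-8902). Filled points were called, and dotted lines mark a 1.5-fold change. FOSL1 is at -1.19 in Pa-Tu-8902 cells and 0.32 in MIA PaCa-2 cells with dox, and EGR1 is below 0 in all 3 comparisons.

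Counted without the fold limit, 5 of the 10 genes passed the adjusted p threshold in Pa-Tu-8902 (38.1% of all genes) and 7 in MIA PaCa-2 (27.2% of all genes). In normalized counts, untreated and dox groups did not overlap for 7 of the 10 in Pa-Tu-8902, where 58.1% of all genes did not, and for 9 of the 10 in MIA PaCa-2, where 52.8% did not. Without the MIA PaCa-2 library that stood apart, 4 of the 10 were again called with dox in that line and 8 of 10 at baseline. Of all genes 1835 and 7943 were then called, against 1751 and 9072 with all libraries.

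At baseline the lines differed in which AP-1 genes were high. Untreated Pa-Tu-8902 held more FOSL1, JUNB and FOSL2, and untreated MIA PaCa-2 held more EGR1, FOSB, JUND, JUN and FOS. Of the 10 genes 3 were called higher in Pa-Tu-8902 (28.9% of all genes) and 5 lower (29.3% of all genes), and all 10 had groups that did not overlap (81.5% of all genes). All 10 passed the p threshold when the fold limit was left aside (72.9% of all genes). FOSL1 was 7.70-fold higher in Pa-Tu-8902 (log2 difference 2.95 ± 0.08, adjusted p = 7.29e-13) and EGR1 6.98-fold lower (-2.80 ± 0.08, adjusted p = 1.64e-12). JUNB was 3.03-fold and FOSL2 2.01-fold higher in Pa-Tu-8902. FOSB was 3.01-fold, JUND 2.75-fold, JUN 2.35-fold and FOS 1.62-fold lower there. The call for FOS was lost, at -0.56, without Pa-Tu-8902 untreated replicate 1. IER2 and MYC differed least, at -0.36 ± 0.06 and -0.35 ± 0.07 on the log2 scale, past the p threshold and under the fold limit. Clones, passage and batch of the lines are not given in the sources used here, so these differences hold between these cultures.

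The order of the levels also differed. In untreated Pa-Tu-8902 FOSL1 came first, followed by IER2 and JUNB, whose libraries overlapped, then MYC, JUND, JUN, FOSL2, EGR1, FOS and FOSB, none of which overlapped its neighbor. In untreated MIA PaCa-2 IER2 and MYC came first, followed by JUND and FOSL1, which overlapped each other. JUN, JUNB and EGR1 came next and overlapped in turn, as did FOSL2 and FOS, and FOSB was last. With dox MYC passed IER2 in both lines, although in Pa-Tu-8902 their libraries overlapped.

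The response to dox itself differed between the lines for FOSL1 and JUN. The log2 fold change with dox in Pa-Tu-8902 minus that in MIA PaCa-2 was -1.51 ± 0.10 for FOSL1 (adjusted p = 7.34e-09) and -0.79 ± 0.09 for JUN (adjusted p = 6.54e-06). These 2 of the 10 genes were called, both lower in Pa-Tu-8902, where 10.4% of all genes were called in either direction and 3.86% in that one. FOSL2 at -0.54 ± 0.11 (adjusted p = 0.00118) and MYC at -0.45 ± 0.09 (adjusted p = 7.04e-04) passed the p threshold but not the fold limit. FOSL2 passed both, at -0.59, without MIA PaCa-2 untreated replicate 1. FOS, called with dox in MIA PaCa-2 alone, differed by -0.53 ± 0.16 and did not pass (adjusted p = 0.0164). For EGR1 the difference was -0.20 ± 0.11 (adjusted p = 0.205), and for FOSB, JUNB, JUND and IER2 it lay between -0.25 and 0.15 with adjusted p of 0.193 or more. In the other direction, a response higher in Pa-Tu-8902 (6.56% of all genes), edgeR and DESeq2 called none of the 10. None had an unadjusted p below 0.05 in that direction (18.9% of all genes).

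The genes around the 10 were taken in lists, from the kinases upstream to the targets downstream, and are to be read against the 16.3% and 12% of all genes called in Pa-Tu-8902 and MIA PaCa-2. Of 20 tested kinases that lead to AP-1 (ERK, JNK and p38 cascades), 1 was called higher and none lower in Pa-Tu-8902. DESeq2 likewise called none lower in Pa-Tu-8902. At an unadjusted p below 0.05, 5 were higher and 9 lower in that line (28.3% and 28.4% of all genes). In MIA PaCa-2 1 was called in each direction, and at that unadjusted p 6 were higher and 10 lower (23.9% and 25.6% of all genes). MAP3K1, which activates the JNK cascade, rose by 0.77 ± 0.08 on the log2 scale in Pa-Tu-8902. RPS6KA3, the ERK target kinase RSK2, fell by 0.73 (SE 0.08) in MIA PaCa-2, and MAPK7, also called ERK5, rose by 0.61 ± 0.11 there. MAPK7 was not called without the library that stood apart (0.49), without dox replicate 2 (0.55), with effective lengths (0.46) or by limma on TPM (0.53). Without the library that stood apart none of the kinases was called higher and 2 were called lower, RPS6KA3 and MAP3K7, the latter named after its values were seen. Of 6 serum response factor genes, edgeR and DESeq2 called none in either line. At an unadjusted p below 0.05, 2 were higher and 1 lower in Pa-Tu-8902 (28.3% and 28.4% of all genes). In MIA PaCa-2 4 were higher and 0 lower at that p (23.9% and 25.6% of all genes). Of 10 other leucine zipper partners BATF2 fell in Pa-Tu-8902, by 0.84 (SE 0.12), and ATF7 was called in MIA PaCa-2 at 0.59 ± 0.09, a call lost in 5 settings, with values from 0.48 without the same library to 0.58 in a fit of all 12 libraries.

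The other immediate-early genes were called in both directions in Pa-Tu-8902 and in the higher direction alone in MIA PaCa-2. In Pa-Tu-8902 5 of 32 tested were called higher and 6 lower, with a median log2 fold change of -0.06. CTGF, a secreted matricellular protein, fell by 1.31 (SE 0.15), PLK3, a stress-induced kinase, fell by 0.88 (SE 0.07), and SNAI2, a repressor of epithelial genes, fell by 0.79 (SE 0.14). In MIA PaCa-2 7 of 33 were called higher and none lower by edgeR or DESeq2, and the median was 0.22. At an unadjusted p below 0.05, 16 were higher and 9 lower in that line (23.9% and 25.6% of all genes). CYR61, the close relative of CTGF, rose from 89.3 ± 3.2 to 338 ± 13 CPM (normalized counts-per-million, not corrected for length), a log2 fold change of 1.93 ± 0.06. DUSP2, a phosphatase that inactivates ERK, rose by 1.21 ± 0.11, and KLF4 rose by 0.82 ± 0.06. The others called higher there were NR4A1, NR4A2, NR4A3 and SNAI2, named after their values were seen. Without the library that stood apart, 7 were called higher and 1 lower, EGR3, a relative of EGR1. With all libraries EGR3 was at -0.67 ± 0.20 (adjusted p = 0.0179), and IER5 at -0.57 ± 0.08 and NAB2, a corepressor of EGR proteins, at -0.55 ± 0.06 passed the p threshold and missed the fold limit, all 3 named after their values were seen. The response of 13 of the 33 genes differed between the lines (10.4% of all genes), 2 higher and 11 lower in Pa-Tu-8902, with CYR61 at -1.77 and SNAI2 at -1.82. Without the same library these were 2 and 10.

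**Figure D4:**
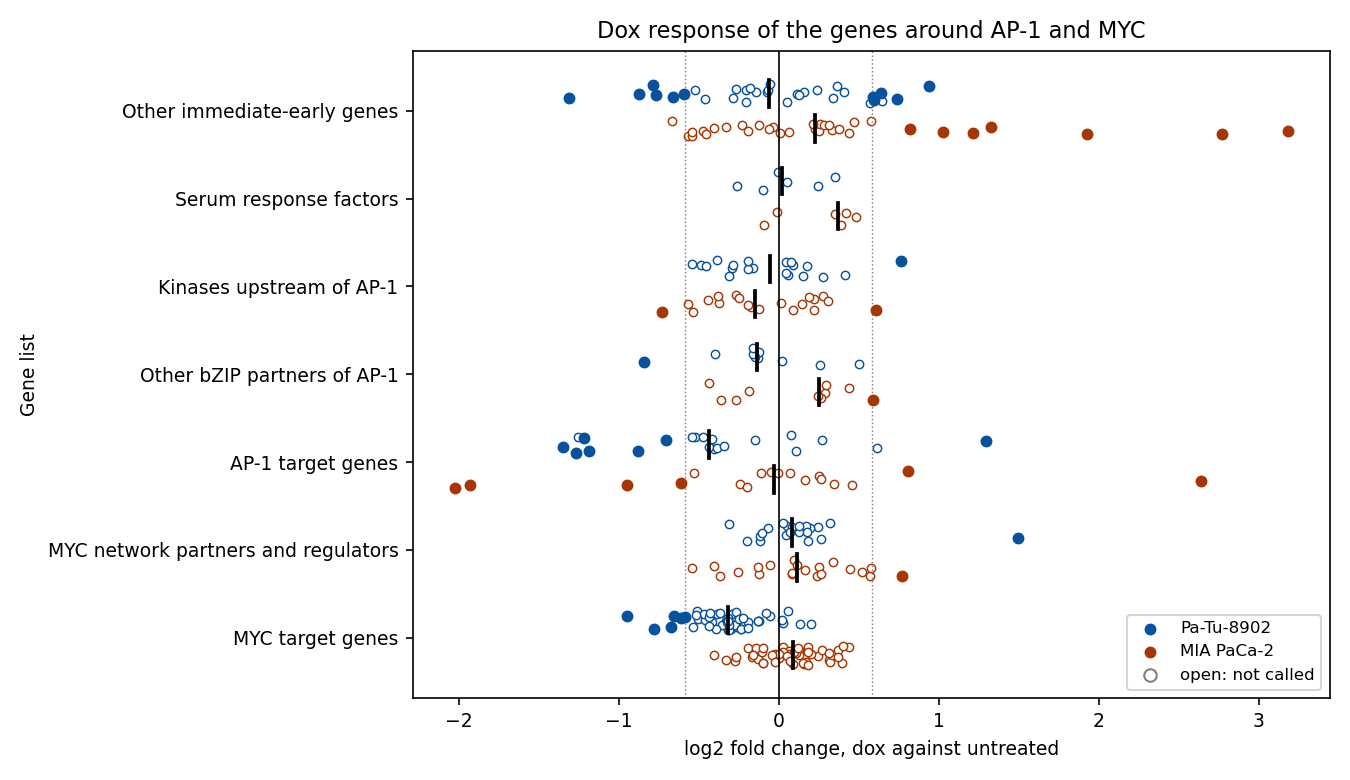
Log2 fold change with dox of each gene in 7 lists around AP-1 and MYC, in Pa-Tu-8902 and MIA PaCa-2. Each point is a gene, filled where called, black bars are list medians, and dotted lines mark a 1.5-fold change. The MYC target genes center at -0.32 in Pa-Tu-8902 cells and at 0.09 in MIA PaCa-2 cells.

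Of 21 known AP-1 target genes tested in Pa-Tu-8902, 6 fell, among them TGFB1, HMGA1, HBEGF and AREG, and 1 rose (HMGA2). HMGA1, HBEGF and AREG were named there after their values were seen. At an unadjusted p below 0.05, 1 was higher and 15 lower there (28.3% and 28.4% of all genes). The median log2 fold change was -0.44 against 0.00 for all genes. TGFB1, the transforming growth factor, fell by 1.35 (SE 0.12), from 28.9 ± 2.2 to 11.3 ± 2.03 CPM. HMGA2, a chromatin protein, rose by 1.29 ± 0.06. In MIA PaCa-2 4 of 18 tested were called lower (AREG, MMP1, MMP10 and TIMP1) and 2 higher, PLAUR among them, with a median of -0.03. At the same unadjusted p, 6 were higher and 7 lower in MIA PaCa-2 (23.9% and 25.6% of all genes). AREG, a ligand of the EGF receptor, fell by 2.02 (SE 0.11), from 38.4 ± 5.7 to 9.39 ± 0.43 CPM, and MMP1, the interstitial collagenase, fell by 1.93 (SE 0.07). PLAUR, the urokinase receptor, rose by 0.81 ± 0.10. Without the library that stood apart, 3 were called lower (AREG, MMP1 and MMP10) and 2 higher, and TIMP1 was no longer called. AREG was called lower in both lines, and its fall was larger in MIA PaCa-2 (difference of the responses 1.32, adjusted p = 5.85e-07). In TGFB1 the response differed by -1.14 (adjusted p = 2.05e-05) and in PLAUR by -1.21 (adjusted p = 1.96e-06), each lower in Pa-Tu-8902. At baseline 14 of 22 of these genes were called higher (28.9% of all genes) and 6 lower (29.3% of all genes) in Pa-Tu-8902, and 13 and 5 of 21 without the library that stood apart.

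Of 50 MYC target genes tested in Pa-Tu-8902, where MYC itself did not pass, 6 were called lower and none higher, and 41 had an unadjusted p below 0.05 in the lower direction (28.4% of all genes) and 0 in the higher (28.3% of all genes). DESeq2 called 5 lower and none higher. The median log2 fold change was -0.32. RRP12 and NOP56, which assemble ribosomal subunits in the nucleolus, fell by 0.95 (SE 0.05) and 0.68 (SE 0.04). NPM1, the nucleolar chaperone nucleophosmin, fell by 0.78 (SE 0.05), from 2349 ± 92 to 1367.0 ± 7.5 CPM. In MIA PaCa-2, where MYC rose, edgeR and DESeq2 called none of 49, where 18 had an unadjusted p below 0.05 in the higher and 8 in the lower direction (23.9% and 25.6% of all genes), and the median was 0.09. The responses of 10 of the 50 differed between the lines, all lower in Pa-Tu-8902, where 3.86% of all genes differed in that direction. Of 21 genes for MYC's partners and regulators, 1 was called in each line and in the higher direction, and 2 in MIA PaCa-2 without the library that stood apart (MXI1 and MAX, the latter named after its values were seen). MXD4, which competes with MYC for their shared partner MAX, rose by 1.496 ± 0.069 in Pa-Tu-8902, from 31.5 ± 3.0 to 88.6 ± 4.5 CPM. MXI1, another competitor of MYC, rose by 0.77 ± 0.10 in MIA PaCa-2. The response of MXD4 differed between the lines by 1.87 (adjusted p = 9.03e-10).

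To find genes that followed the same course, the log2 level of each gene was centered on the mean of its line and correlated with FOSL1, EGR1 and MYC over the 12 libraries, among 10011 genes with at least 100 normalized counts on average in both lines. The points share libraries and the dox contrast, so the values are descriptions. Among the 5 genes whose courses were most like that of FOSL1 were FLII (r = 0.990), HMGA1 (0.988), BMS1 (0.983) and BCL2L1 (0.982). HMGA1, which encodes a chromatin protein, is on the list of AP-1 targets. FLII encodes an actin regulator, BMS1 a ribosome assembly factor and BCL2L1 the survival protein BCL-XL. JUN ranked 49 for FOSL1 (r = 0.956). Most like EGR1 were MAK16 (0.995), RAB21 (0.990), RUSC1, SEH1L and PORCN (0.988 each). MAK16 is a ribosome assembly factor, RAB21 a small GTPase of endosomes, SEH1L a part of the nuclear pore and PORCN the enzyme that acylates WNT proteins. All 5 were called lower in both lines. The direction follows from their choice by likeness to EGR1, while the size of the change does not. RAB21 had log2 fold changes of -1.48 in Pa-Tu-8902 cells and -1.40 in MIA PaCa-2 cells, and MAK16 of -1.10 and -0.91. Most like MYC were NFKBIA (0.992), the inhibitor of NF-κB, COTL1 (0.991), an actin-binding protein, SQSTM1 (0.990), the autophagy receptor p62, MEPCE (0.984) and SPECC1 (0.984). In MIA PaCa-2 NFKBIA had a log2 fold change of 0.95 and COTL1 of 1.48. FOS ranked 93 for MYC (r = 0.953) and EGR1 ranked 8951 (r = -0.76).

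**Figure D5:**
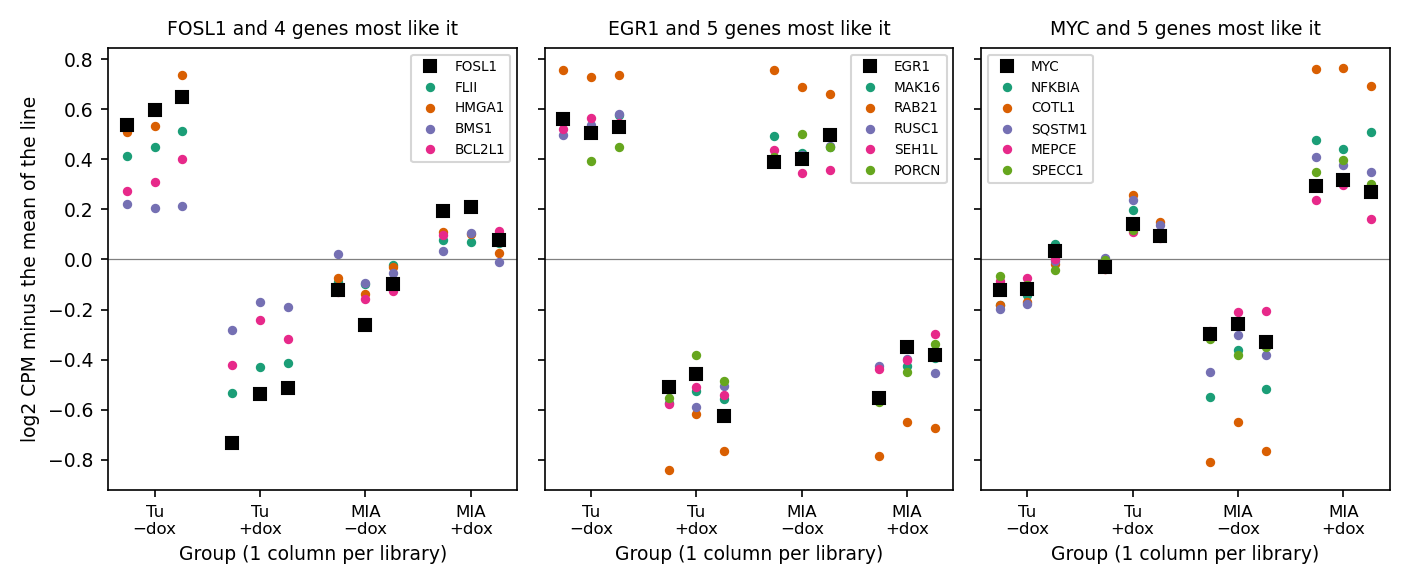
Log2 CPM of FOSL1, EGR1 and MYC (black squares) and of genes most like each (4 for FOSL1, 5 for EGR1 and MYC), centered on the mean of the line, in the 12 libraries. Tu stands for Pa-Tu-8902 and MIA for MIA PaCa-2. The 4 genes shown with FOSL1 had log2 fold changes of -1.18 to -0.42 in Pa-Tu-8902 cells and 0.09 to 0.28 in MIA PaCa-2 cells, and those most like EGR1 sit lower with dox in both lines. The genes were picked for these courses.

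The isoform estimates were steady for some of the genes and not for others. JUN, JUNB and EGR1 have 1 annotated isoform. The leading isoform of FOSL1 took 73.3% to 79.4% of its level in all 12 libraries, and the leading isoform of FOSL2 took 87.2% to 100% of that gene's level. The estimates for MYC were not steady, since 1 of its 9 annotated isoforms (MYC-207) took 3.96% to 24.4% in the 3 untreated Pa-Tu-8902 libraries and 16.9% to 41.6% in the 3 with dox. Those ranges overlap. FOSB was spread over 13 isoforms at very low counts, and no isoform share could be read for it. Of the 2 JUND isoforms, the minor one (JUND-202) was unsteady, with 8.42% to 26.8% in untreated MIA PaCa-2. It averaged 15.4% ± 9.97 (SD, n = 3) there and 15.1% ± 3.39 with dox, and in Pa-Tu-8902 it ranged from 0% to 7.501% without dox and averaged 4.72% ± 1.90 with it.

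Replicate spread differed among the 10 genes. In MIA PaCa-2 the within-group SD of IER2 was 0.023 and that of MYC 0.030 on the log2 scale, where the median of genes of like level (within 2-fold) was 0.077 and 0.076. JUND was the most variable for its level, with an SD of 0.20 in Pa-Tu-8902 cells and 0.16 in MIA PaCa-2 cells, larger than in 97.9% and 92.5% of genes of like level. JUNB in Pa-Tu-8902 had an SD of 0.15, larger than in 95.5% of such genes, and in MIA PaCa-2 one of 0.082, larger than in 41.5%. FOSL2 in MIA PaCa-2 had an SD of 0.15, larger than in 88.2% of such genes, and in Pa-Tu-8902 one of 0.037, larger than in 12.8%.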

How the data were processed

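Expression of 10 genes was analysed in 12 libraries. Per the paper's methods and the labels, the authors prepared strand-specific poly(A) libraries, trimmed the reads with Trimmomatic 0.39, aligned them to GRCh38 with STAR 2.5.2a as called by RSEM 1.3.1 under default parameters with GENCODE 29, and deposited expected counts and TPM per gene and isoform, with effective lengths. Deposited expected counts are neither normalized nor filtered (5.34% are not whole; those of the 10 genes are) and were rounded. Deposited TPM served to compare levels between genes.

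Genes that reached 10 counts in 3 or more libraries were tested with edgeR 4.0.16 (TMM, glmQLFit, glmQLFTest, R 4.3.3), per line, between untreated lines and for the interaction over 12 libraries, with Benjamini-Hochberg adjustment over all genes tested. The standard error of a log2 fold change is its size over √F. Other genes named are, per list and line, the 3 called genes that changed most and averaged 100 or more normalized counts, and the 5 most correlated with FOSL1, EGR1 and MYC. Genes and lists were chosen with earlier results of these data known, the lists from general knowledge. Positions come from GENCODE 44. Some named genes and their values are not reported here. The scripts were tested on simulated counts. Alternatives were DESeq2 1.42.0, its size factors, other count filters, effective lengths, limma 3.58.1 on log2(TPM + 0.1), a replicate block, other thresholds, 1 fit of all libraries, and each library left out. Total counts of 26226537 to 43406137 leave counting error that matters mainly for FOSB.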

Additional observations from a re-analysis of the deposited data

Results flagged for a closer look

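The response of FOSL1 and of JUN to dox differed between the lines in the test of the difference itself. For FOSL1 the log2 fold change in Pa-Tu-8902 minus that in MIA PaCa-2 was -1.51 ± 0.10 (adjusted p = 7.34e-09, edgeR), and all 3 dox libraries were lower than the untreated ones in Pa-Tu-8902 and all 3 higher in MIA PaCa-2. For JUN it was -0.79 ± 0.09 (adjusted p = 6.54e-06), with all 3 dox libraries lower in Pa-Tu-8902 and groups that overlapped in MIA PaCa-2. Without the untreated MIA PaCa-2 library that stood apart the differences were -1.44 and -0.73.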

How the results depend on the processing

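Across the alternatives, 605 of 640 values for the 10 genes kept their direction and their side of the threshold, 4 lost the call (MYC in MIA PaCa-2 in 3 settings and FOS at baseline), 15 gained one and 16 changed sign, all 16 of them for differences that were not called. With an adjusted p below 0.05 and no fold limit, the genes called of the 10 were 7 in Pa-Tu-8902 cells, 9 in MIA PaCa-2 and 5 for the difference of the responses. Of all genes 7619 of 14949 tested, 6116 of 14589 and 4432 of 16544 were called in the same comparisons. With each library left out, 4 to 5 of the 10 were called in Pa-Tu-8902 cells, 3 to 4 in MIA PaCa-2, 7 to 8 at baseline and 2 to 3 for the difference. Of all genes 2114 to 2339, 1479 to 1835, 7649 to 7943 and 1549 to 1726 were called, against 2443, 1751, 9072 and 1724 with all libraries. For JUN in MIA PaCa-2 the sign changed with effective lengths (-0.0038), without untreated replicate 2 (-0.039) and without dox replicate 1 (-0.014). For the difference of the responses it changed for FOSB with effective lengths (0.15) and limma (0.10), for JUNB (-0.12 to 0.045 with each library left out) without Pa-Tu-8902 untreated replicate 3 (0.045) and dox replicate 1 (0.0086), and for JUND (-0.095 to 0.11 with each library left out) with no filter (0.00997), the stricter filter (0.012), effective lengths (0.034) and limma (0.042), and without Pa-Tu-8902 untreated replicate 3 (0.096) or dox replicate 1 (0.11) and MIA PaCa-2 untreated replicate 3 (0.077), dox replicate 1 (0.034) or dox replicate 2 (0.067). The cause was not tested. Of 795 values of the other named genes 778 kept direction and side, 10 lost the call, 7 gained one and 0 changed sign.

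A block for the replicate number called 4, 4, 8 and 2 of the 10 genes in the same comparisons, as without it. Of all genes it called 2380 of 14949 tested, 1735 of 14589, 8891 of 15608 and 1611 of 16544. The deviations of same-numbered libraries from their group means had correlations of -0.29 to 0.32, mixed in sign. Differently numbered libraries were not compared, so these values cannot exclude pairing. The numbers were not taken as pairs in the main fits.

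Low counts limit FOSB, at 17 to 36 counts per library in Pa-Tu-8902.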
